A study of Homo sapiens with 24 samples.

Results

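The cytosolic ribosomal protein genes are the 78 protein-coding genes whose symbols mark them as a protein of the small (RPS, RPSA) or large (RPL, RPLP) subunit. They were picked by symbol alone from GENCODE 29, out of 57721 genes, without tissue-specific or rarely used paralogs such as RPL3L, RPL22L1, RPS27L and the Y-linked copies of RPS4X. By count, 31 members belong to the small subunit, 44 to the body of the large subunit and 3 to its stalk. RPL7L1, a paralog of RPL7, meets the symbol rule and was kept, whereas FAU, which encodes a ribosomal protein fused to a ubiquitin-like part, falls outside it. All 78 members passed the filter on low counts.

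RNA came from HCT116, a human colon cancer cell line, in 8 groups of 3 libraries. The untransfected groups were TNRC6AB-/- (both TNRC6A and TNRC6B disrupted), TNRC6A-/-, TNRC6B-/- and wild type. The transfected groups were TNRC6AB-/- with siTNRC6C, a pool of siRNA duplexes against TNRC6C, TNRC6AB-/- with the control duplex siGL2, wild type with siTNRC6C, and wild type with siGL2. Each knockout genotype was 1 purchased line, in which TNRC6A carries a frameshifting point mutation and TNRC6B a large deletion, so a genotype and its line cannot be told apart. The study's methods seeded the transfected TNRC6AB-/- cells more densely than wild type. Whether replicate libraries came from separate cultures is not stated, so p-values measure only the spread between these libraries, which may be technical.

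TNRC6 proteins are scaffolds that tie Argonaute, bound to a small RNA, to the machinery that shortens and decays a target mRNA. Ribosomal protein mRNAs are among the most abundant in a growing cell, and their products are needed in equal numbers. Most begin with a 5′ terminal oligopyrimidine (TOP) tract, a C followed directly by further C or U, through which the growth-regulating kinase mTOR and the RNA-binding protein LARP1 control their translation and stability.

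The first bases of these mRNAs are shown because the tract is the sequence the family shares outside its coding regions. In RefSeq's promoter table (GRCh38.p14), 63 of the 78 members had an entry, and 46 of them (73.0%) had a start with C followed by at least 4 C or T on the coding strand. Of all 35116 entries 4.07% had this letter pattern at the start, and of all 27305 genes there 5.14% had it in at least 1 entry. Within 5 bases of the start 53 of the 63 members had it in an entry, beside 21.1% of all entries. The runs below cover 10 bases before the start and 20 from it, 5′ to 3′ on the coding strand, with the pyrimidine run in capitals where it met the pattern. The stretch before the start is not transcribed from that start.
RPSA (chr3:39406710-39406739, + strand): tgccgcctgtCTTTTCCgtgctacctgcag
RPS3 (chr11:75399508-75399537, + strand): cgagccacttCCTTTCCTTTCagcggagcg
RPS18 (chr6:33272065-33272094, + strand): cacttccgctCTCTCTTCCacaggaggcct
RPL11 (chr1:23691796-23691825, + strand): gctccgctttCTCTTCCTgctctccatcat
RPL12 (chr9:127451387-127451416, - strand): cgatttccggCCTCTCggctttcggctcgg
RPL21 (chr13:27251548-27251577, + strand): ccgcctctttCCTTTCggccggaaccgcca
RPL22 (chr1:6199576-6199605, - strand): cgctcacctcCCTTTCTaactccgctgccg
RPL36A (chrX:101391001-101391030, + strand): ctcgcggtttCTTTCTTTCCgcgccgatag
RPL41 (chr12:56116623-56116652, + strand): cttcgcctttCTCTCggccttagcgccatt
RPLP0 (chr12:120201092-120201121, - strand): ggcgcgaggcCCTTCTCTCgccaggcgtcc
RPL7A (chr9:133348208-133348237, + strand): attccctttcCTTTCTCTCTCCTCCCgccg
RPL35 (chr9:124861938-124861967, - strand): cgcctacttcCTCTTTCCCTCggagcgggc
RPL7L1 (chr6:42879606-42879635, + strand): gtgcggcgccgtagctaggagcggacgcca
RPSA to RPLP0 are members that fell in the comparisons that follow. RPL7A, RPL35 and RPL7L1 are the members that departed most from the rest, and of these RPL7L1 alone lacks the pattern. Among the other lists examined the pattern was frequent in translation factors known as TOP mRNAs, at 17 of 19 matched genes, against 6 of 66 mitochondrial ribosomal protein genes, 9 of 67 genes of oxidative phosphorylation and 1 of 34 proteasome genes. Members with and without the pattern fell alike, with median log2 fold changes of -0.68 and -0.67 in TNRC6AB-/- against wild-type cells and -1.19 and -1.16 in TNRC6AB-/- siTNRC6C against wild-type siGL2 cells, given as a description.

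In TPM, a unit that divides reads by transcript length and so allows levels of different genes to be compared, the members ranged 55.6-fold in mean level over all 24 libraries. RPL41, which encodes the shortest ribosomal protein, stood highest at 3066 TPM and RPL7L1 lowest at 55.1 TPM, with a median over members of 850.0 TPM. RPL7L1 was the only member under 200 TPM, and RPL22, the next lowest, had 304.8 TPM. The nearest neighbours at the top were RPL37A at 1933.5 TPM and RPS27, a small-subunit protein with a zinc finger, at 1857.1 TPM, averages over 24 libraries whose difference was not tested.

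Together the members took a smaller share of all TPM in every TNRC6A-/-, TNRC6B-/- and TNRC6AB-/- library than in any wild-type library. The share was 5.22%, 5.17% and 5.18% in the TNRC6AB-/- libraries, 6.53%, 6.88% and 7.05% in TNRC6A-/-, 6.92%, 8.29% and 7.42% in TNRC6B-/-, and 8.84%, 8.77% and 9.06% in wild type. In the TNRC6AB-/- cells the family held 0.584 times its wild-type share of the pool (5.19% ± 0.0249 against 8.89% ± 0.152, mean ± SD, n = 3 each). Among transfected cells the share was 5.41%, 5.6% and 5.78% in TNRC6AB-/- with siTNRC6C, 6.83%, 6.93% and 6.45% in TNRC6AB-/- with siGL2, 8.56%, 8.78% and 8.35% in wild type with siTNRC6C, and 8.51%, 8.63% and 8.72% in wild type with siGL2. The transfected groups thus fell into 3 levels that did not overlap, with the 2 wild-type groups, which overlapped each other, at the top, TNRC6AB-/- siGL2 cells between, and TNRC6AB-/- siTNRC6C cells lowest. Each of these is a sum per library with 3 libraries a group, for which an exact two-sided permutation test cannot go below p = 0.1, and none was run. In bulk RNA, fewer cells that express a gene and less of its RNA per cell cannot be told apart, and a share says nothing of the total RNA of a cell.

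**Figure D1:**
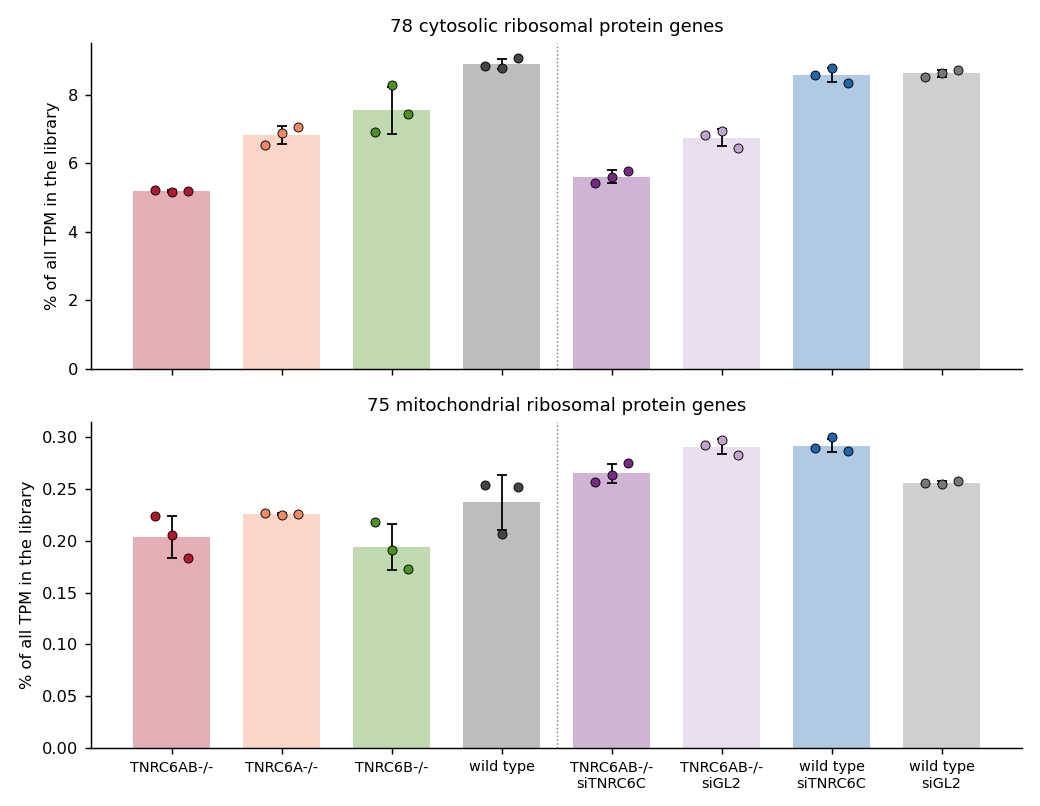
Percent of all TPM held by the 78 cytosolic ribosomal protein genes (top) and the 75 mitochondrial ones (bottom), for 8 groups. Points are libraries, bars are means and error bars are SD (n = 3). The cytosolic share lies at 5.17 to 5.22% in TNRC6AB-/- libraries and at 8.77 to 9.06% in wild-type ones.

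Libraries held 28144290 to 42689320 reads. TNRC6C fell to 20.7, 19.8 and 18.7 CPM (counts relative to the scaled library total, a unit for comparing samples, not genes) in TNRC6AB-/- siTNRC6C cells, against 127.1, 119.1 and 113.1 CPM in TNRC6AB-/- siGL2 cells, and TNRC6A and TNRC6B mRNA were lower in the lines that carry their mutations (log2 fold change in TNRC6AB-/- against wild type -1.13 and -1.05, edgeR adjusted p = 1.43e-08 and 1.66e-08). Of 6 colon epithelial markers KRT8 had at least 258.2 TPM in every library, VIL1 was at or below 0.247 TPM, and the 10 markers of blood, endothelium, fibroblasts and liver summed to at most 28.4 TPM, most of it COL1A1. The 2 libraries whose members' share of raw reads departed most from their groups were TNRC6B-/- replicate 1, at 4.41% against 6.09% and 5.88%, and TNRC6AB-/- replicate 3, at 3.97% against 3.01% and 3.14%. The scaling factor of wild-type siGL2 replicate 3 was 1.03, against 0.853 and 0.868 in the other libraries of that group, and its CPM was the lowest of the group for all 78 members. Mean fragment length was 196.9 to 214.3 bases in transfected libraries, 165.6 to 171.8 in TNRC6A-/- and 182.3 to 191.7 in the others, a difference whose part in the results was not tested.

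TNRC6AB-/- cells held less of the great majority of ribosomal protein mRNAs than wild type. In TNRC6AB-/- cells against wild type, 72 of 78 members fell and 0 rose (adjusted p below 0.05, edgeR quasi-likelihood test with Benjamini-Hochberg adjustment over 24153 genes), where 12.3% of all genes tested fell. The median log2 fold change of the members was -0.69, against 0.01 over all genes tested. The drop was even across the ribosome, with a median of -0.69 in the small subunit, -0.70 in the body of the large subunit and -0.75 in the stalk. For 71 members every TNRC6AB-/- library lay below every wild-type library, which held for 14.6% of all genes. Fold changes of members had an SD of 0.19 among themselves, against 0.62 among 10920 other protein-coding genes with a mean of at least 5 CPM.

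RPS2, a protein near the mRNA entry channel of the small subunit, had the smallest adjusted p. It had 681.9, 710.8 and 1003.8 CPM in TNRC6AB-/- cells and 1649.4, 1350.4 and 1886.8 CPM in wild type (log2 fold change -1.03, SE 0.161, adjusted p = 3.15e-05, edgeR). All 3 TNRC6AB-/- libraries lay below the lowest wild-type library, and replicate 3 was the highest of the 3. Reads on pseudogenes of RPS2 were 8.0% of the sum of gene and pseudogenes, so its exact level is uncertain. RPSA, the laminin receptor and a component of the small subunit, had 386, 375.7 and 585.7 CPM in TNRC6AB-/- cells and 918.6, 657.7 and 1077.2 CPM in wild type (-0.98, SE 0.173, adjusted p = 0.000134, edgeR). RPL21, of the large subunit, had 276.5, 271.7 and 351.6 CPM in TNRC6AB-/- cells and 550.4, 464.2 and 638.5 CPM in wild type (-0.88, SE 0.149, adjusted p = 8.16e-05, edgeR). For RPSA and RPL21 too the groups did not overlap.

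RPL5 and RPL11 form a particle with 5S rRNA and, when free of the ribosome, bind the p53 regulator MDM2. RPL11 (chromosome 1, 23691742 to 23696835, GRCh38) had 323.2, 342 and 406.3 CPM in TNRC6AB-/- cells and 580.7, 573.9 and 693.3 CPM in wild type, a fold change of -0.79 on the log2 scale (SE 0.134, adjusted p = 8.89e-05, edgeR). RPL5 had 394.8, 418.5 and 537.9 CPM in TNRC6AB-/- cells and 803.7, 731 and 939.5 CPM in wild type (log2 fold change -0.87, SE 0.169, adjusted p = 0.000359, edgeR). Both thus fell by a like amount, with no overlap between groups. The stalk proteins, which recruit translation factors to the large subunit, fell as well, with log2 fold changes of -0.75 for RPLP0, -0.64 for RPLP1 and -0.79 for RPLP2 (adjusted p = 0.00189, 0.00537 and 0.000675, edgeR). Further members with known roles also fell, among them RPS6, the classic substrate of S6 kinase (-0.71), RPS27A, made as a fusion to ubiquitin (-0.87), RPL22 (-0.80), RPL10, which is added late to the large subunit (-0.63), RPL13A (-0.71) and RPS4X (-0.56), with adjusted p = 0.000218 to 0.00976 by edgeR. RPL41, the most abundant (-0.54, adjusted p = 0.015), and RPS19, mutated in Diamond-Blackfan anemia (-0.54, adjusted p = 0.0168), fell least among those named. The calls of RPL41, RPS19 and RPL13A were lost in a fit of only the 6 compared libraries (adjusted p = 0.0652, 0.0721 and 0.0581, edgeR), in which 57 members were called. The share of all genes called in that fit is not given here.

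**Figure D2:**
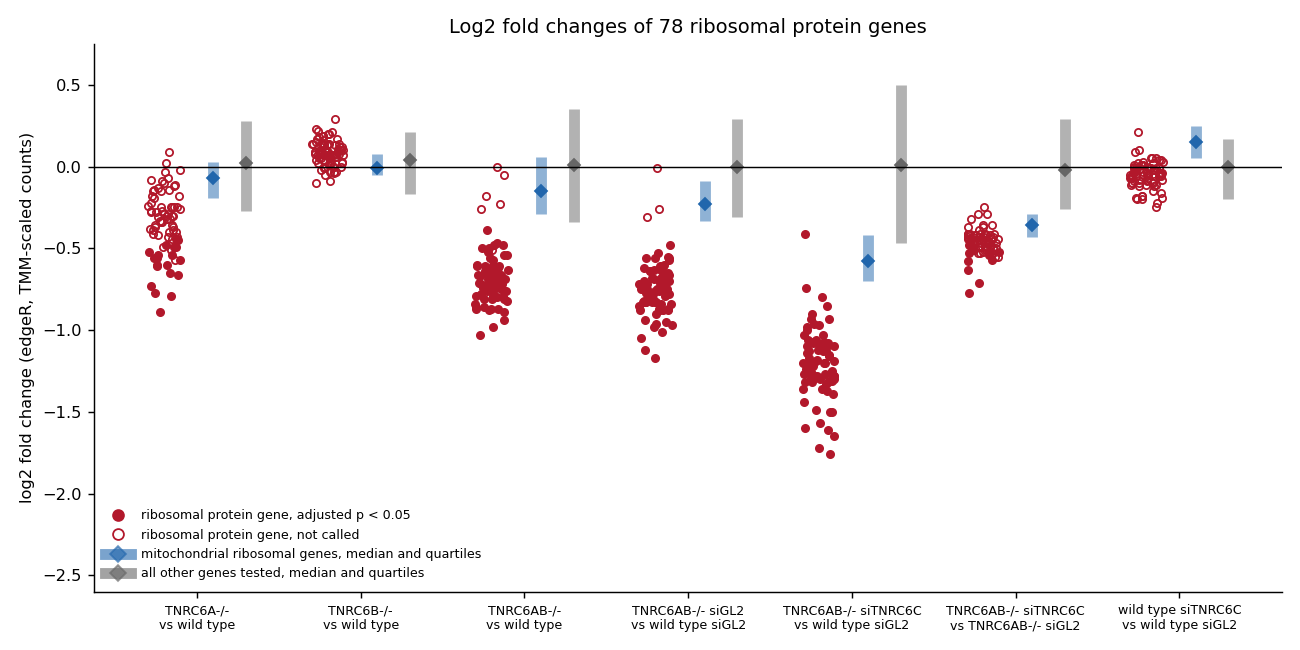
Log2 fold changes of the 78 members in 7 comparisons (circles, filled where adjusted p is below 0.05), beside the median and quartiles of the 75 mitochondrial ribosomal protein genes (blue) and of all other genes tested (grey). Member medians are -0.33, 0.08, -0.69, -0.75, -1.21, -0.46 and -0.05 from left to right.

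The single knockouts differed from the double knockout in the number of members called. In TNRC6A-/- cells 20 members fell and 0 rose, with 5.47% of all genes falling, and the median of the members was -0.33 against 0.02 over all genes. Mean CPM was below wild type in 76 of 78 members, and in 50 of them the groups did not overlap, against 13.7% of all genes. In the small subunit 9 of 31 members fell, with a median of -0.36. In the body of the large subunit 11 of 44 fell, with a median of -0.33, and in the stalk 0 of 3. The smallest adjusted p was that of RPL36A, of the large subunit, with 150.5, 158.9 and 174.7 CPM in TNRC6A-/- cells and 267.5, 298.6 and 332.1 CPM in wild type (log2 fold change -0.89, SE 0.175, adjusted p = 0.00126, edgeR). RPL36A lies beside HNRNPH2 with a read-through transcript, so reads of this locus can be split. RPL38 (-0.66, adjusted p = 0.00225), RPL27 (-0.79, adjusted p = 0.00707) and RPL22 (-0.60, adjusted p = 0.00772, edgeR) followed, each without overlap, and all are large-subunit proteins. Against these stood RPS18, of the small subunit, at 0.02 (adjusted p = 0.95), and RPL7L1 at 0.09 (adjusted p = 0.713). RPL36A, RPL38 and RPL27 are 439, 455 and 494 bases long, RPL22 1262, RPS18 616 and RPL7L1 2860. Fragments were shorter in TNRC6A-/- libraries (165.6 to 171.8 bases) than in wild type (182.3 to 189.9). Genotype and fragment length thus cannot be told apart here, and the part of length was not tested. The count in TNRC6A-/- cells was 45 with the most distant library of each group left out, where 9.3% of all genes fell, and 57 with protein-coding transcripts alone, where 12.2% fell. It was 6 without TNRC6A-/- replicate 1 or replicate 2. It was 8 without wild type replicate 3, 11 without wild type replicate 1 or 2, and 39 without TNRC6B-/- replicate 1. For the fits with 1 library left out the share of all genes is not given. These counts therefore do not show how the members stood relative to all genes.

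In TNRC6B-/- cells 0 of 78 members were called by edgeR, with 0 at an unadjusted p below 0.05, and 0 by DESeq2 or limma voom, where 3.14% of all genes were called in either direction. The median of the members was 0.08 against 0.04 over all genes, and values ran from -0.10 for RPL11 (adjusted p = 0.808) and -0.09 for RPL7A (adjusted p = 0.874) to 0.29 for RPL15 (adjusted p = 0.52). RPS7 (0.23), RPS23 (0.20) and RPS12 (0.19), all of the small subunit, had the next smallest adjusted p (0.665 to 0.679, edgeR). Spread within this group was wide: RPL41 had 965.4, 1696.2 and 1640.6 CPM in TNRC6B-/- cells and 1286, 1312.9 and 1446.5 CPM in wild type, so that replicate 1 lay below all wild-type libraries and replicates 2 and 3 above. The direction turned with the scale: on log2(TPM + 1) with limma the members' median was -0.25, beside -0.16 over all genes, and 18 fell, where 3.2% of all genes did. In edgeR with the most distant library of each group left out 20 rose, where 14.1% of all genes did, and 2 were called without TNRC6B-/- replicate 1.

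The drop in the double knockout was tested against the sum of the single knockouts in the same fit, as the change from TNRC6A-/- to TNRC6AB-/- minus the change from wild type to TNRC6B-/-. This difference was called negative for 5 members, where 4.28% of all genes were, so the count is near the share of all genes. The median was -0.41 over the members and -0.02 over all genes. RPS2, with the smallest adjusted p, had 1531.2, 1488.6 and 1651 CPM in TNRC6A-/- cells and 1278.5, 1960 and 1845.4 CPM in TNRC6B-/- cells, each group overlapping the wild-type range, against the 681.9 to 1003.8 CPM of TNRC6AB-/- cells (difference -1.02, SE 0.226, adjusted p = 0.00522, edgeR). The others were RPS18 (-0.93, SE 0.267), RPL14 (-0.69, SE 0.198), RPSA (-0.83, SE 0.243) and RPL3, a core protein of the peptidyl transferase region (-0.81, SE 0.237), with adjusted p = 0.032 to 0.0377. RPL36A (0.05, SE 0.246), RPL38 (0.05, SE 0.194) and RPL27 (0.04, SE 0.269), which had the smallest adjusted p in TNRC6A-/- cells and were named here after their values were seen, lay near 0, and their sign changed without TNRC6B-/- replicate 1. The TNRC6A-/- change enters this difference with a minus sign. Picking members by a large fall there therefore shifts their difference upward, and no contrast with the called members is drawn. The count was 42 without TNRC6B-/- replicate 1, 20 without TNRC6AB-/- replicate 3, 3 without wild type replicate 2 or 3, 1 without any of 6 other libraries (wild type replicate 1, TNRC6A-/- replicate 3, TNRC6B-/- replicates 2 and 3, TNRC6AB-/- replicates 1 and 2), and 0 in a fit of only the compared libraries (adjusted p = 0.0945 for RPS2). Over all genes 8.4% were called negative without TNRC6B-/- replicate 1 and 4.6% without TNRC6AB-/- replicate 3. With protein-coding transcripts alone the value of RPL14 was -0.00 (adjusted p = 0.989, edgeR).

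Transfected cells gave the same comparison in separate libraries. Among siGL2-treated cells, 75 members fell in TNRC6AB-/- relative to wild type and 0 rose, where 12.5% of all genes fell, and the median was -0.75 against -0.00 over all genes. RPS2 had 1026.5, 974.5 and 844.5 CPM in TNRC6AB-/- siGL2 cells and 2116.6, 2139.1 and 1643.7 CPM in wild-type siGL2 cells (log2 fold change -1.05, SE 0.161, adjusted p = 4.07e-05, edgeR). RPL8, which lies in the core of the large subunit, had 728.7, 691.9 and 610 CPM in TNRC6AB-/- siGL2 cells and 1571.9, 1595.1 and 1236 CPM in wild-type siGL2 cells (-1.12, SE 0.157, adjusted p = 1.52e-05, edgeR). RPS3, an entry-channel protein of the small subunit that is also a DNA repair enzyme, had 655.9, 623.3 and 546.1 CPM in TNRC6AB-/- siGL2 cells and 1276.8, 1284.5 and 1014.6 CPM in wild-type siGL2 cells (-0.97, SE 0.154, adjusted p = 6.44e-05, edgeR). RPSA followed (-0.98, SE 0.173, adjusted p = 0.000207, edgeR). In RPS2, RPL8 and RPS3 the lowest wild-type siGL2 library lay above the highest TNRC6AB-/- siGL2 library.

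The difference between these knockout effects, with and without transfection, was called for 0 of 78 members by edgeR, with 0 at an unadjusted p below 0.05 and 0 by DESeq2 or limma voom, where 8.72% of all genes were called. Its median over the members was -0.07, with a range of -0.43 to 0.21. RPL9 (-0.43, SE 0.289), RPL8 (-0.32, SE 0.22) and RPS9, of the small subunit (-0.27, SE 0.216), had the smallest adjusted p (0.397, 0.412 and 0.493, edgeR). On log2(TPM + 1) with limma, however, the median was 0.44, against 0.23 over all genes, and 49 members were called, all of them positive, where 9.2% of all genes were called positive.

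With TNRC6C lowered as well, the family stood lower still. All 78 members fell in TNRC6AB-/- siTNRC6C cells when set against wild-type siGL2 cells, where 25.2% of all genes fell, and the median was -1.21 against 0.01 over all genes. RPS2 had 577.4, 575.9 and 583.7 CPM in TNRC6AB-/- siTNRC6C cells, 3.4-fold below wild-type siGL2 cells (log2 fold change -1.76, SE 0.164, adjusted p = 1.68e-08, edgeR). RPS3 (-1.60, SE 0.156, adjusted p = 3.73e-08), RPL8 (-1.61, SE 0.159, adjusted p = 4.55e-08) and RPL38 (-1.29, SE 0.139, adjusted p = 1.68e-07, edgeR) had the next smallest adjusted p. RPL9 (-1.72, SE 0.21) and RPL12 (-1.65, SE 0.183) were named after their values were seen, as the members next to RPS2 in size of change. Of the summed reads of RPL9 and its pseudogenes 23.5% were assigned to the pseudogenes, so its level is uncertain. The members that fell least were RPL7L1 (-0.41, SE 0.131, adjusted p = 0.0143), whose call was lost without wild-type siGL2 replicate 1 or 2 (adjusted p = 0.0733 and 0.0642), and RPL7A (-0.74, SE 0.167, adjusted p = 0.00102).

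**Figure D3:**
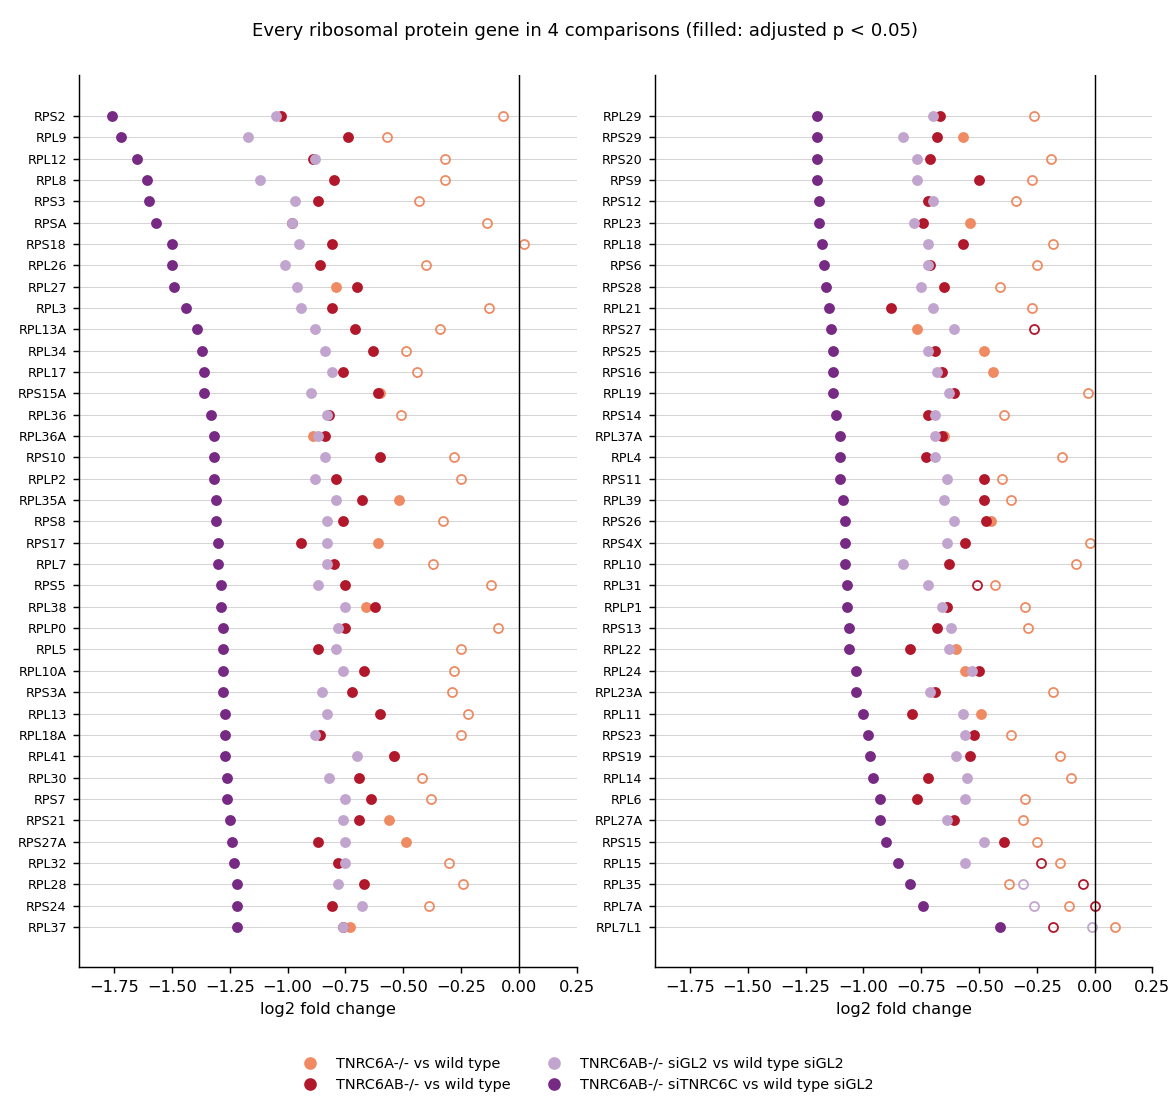
Log2 fold change of every member in 4 comparisons, ordered from RPS2 (-1.76, top left) to RPL7L1 (-0.41, bottom right) by the comparison of TNRC6AB-/- siTNRC6C with wild-type siGL2 cells. Filled circles have an adjusted p below 0.05. RPL7A and RPL35 are open in both comparisons of TNRC6AB-/- cells that lack siTNRC6C.

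The step that siTNRC6C adds within TNRC6AB-/- cells was small for each gene and the same in direction for all. Against TNRC6AB-/- siGL2 cells, all 78 members were lower, with no overlap between the 3 libraries of each group in any of them, where 27.9% of all genes were lower without overlap. Of these, 10 fell at an adjusted p below 0.05, where 4.37% of all genes fell. An unadjusted p below 0.05 (edgeR) was reached by 72 members, beside 5794 of all 24153 genes. Of 75 mitochondrial ribosomal protein genes 67 were lower without overlap and 14 fell, and of 81 oxidative phosphorylation genes 66 and 13. The median of the members was -0.46 against -0.02 over all genes, and members differed among themselves by an SD of 0.08 only. RPL12, at the base of the stalk, had 368.2, 365.3 and 384.9 CPM in TNRC6AB-/- siTNRC6C cells and 688.4, 647.8 and 564.5 CPM in TNRC6AB-/- siGL2 cells (log2 fold change -0.77, SE 0.179, adjusted p = 0.013, edgeR). RPS2 (-0.71, adjusted p = 0.0102), RPS3 (-0.63, adjusted p = 0.0158) and RPL38 (-0.53, adjusted p = 0.0229, edgeR) also fell. RPL10 (-0.25, SE 0.18, adjusted p = 0.399) and RPL15, of the large subunit (-0.29, SE 0.185, adjusted p = 0.345), lay at the other end.

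How many members passed in this step varied between fits, and why was not tested. The fit of 24 libraries shares 1 spread between untransfected libraries, where the members' median coefficient of variation was 0.185, and transfected ones, where it was 0.0599. With weights per group (limma voom) 78 members fell, where 21.8% of all genes did, and in a fit of only the compared libraries 78, where 22.9% did. In DESeq2 30 fell, where 6.4% of all genes did, and with the most distant library of each group left out 75, where 13.9% did. Leaving out 1 library gave 0 without TNRC6AB-/- siGL2 replicate 1, 1 without TNRC6AB-/- siGL2 replicate 2 or TNRC6AB-/- siTNRC6C replicate 1 or 2, and 2 without TNRC6AB-/- siTNRC6C replicate 3, while 60 fell without TNRC6B-/- replicate 1, a library outside the comparison. Without other libraries outside it, 5 fell without any wild-type siTNRC6C replicate, 6 without TNRC6AB-/- replicate 2, 16 without wild type replicate 2 or TNRC6B-/- replicate 3, and 20 without TNRC6AB-/- replicate 3. Counts with 1 library left out are given without the share of all genes, so they do not place the members relative to all genes.

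In wild-type cells siTNRC6C left the members close to siGL2. Of 78 members 0 were called by edgeR, 0 had an unadjusted p below 0.05, and 0 were called by DESeq2 or limma voom, where 0.932% of all genes were called. The median was -0.05 against 0.00 over all genes, between -0.25 for RPL28 (SE 0.158, adjusted p = 0.572), of the large subunit, and 0.21 for RPL7L1 (SE 0.131, adjusted p = 0.575). RPS2 (-0.22, adjusted p = 0.632) and RPS20 (-0.18, adjusted p = 0.691), of the small subunit, and RPL23A, of the large one (0.10, adjusted p = 0.887, edgeR), lay between, and the level of RPL23A is uncertain through its pseudogenes. RPL41 had 1542.1, 1482 and 1494.1 CPM in wild-type siTNRC6C cells and 1821.5, 1798.3 and 1388.2 CPM in wild-type siGL2 cells, which overlap through wild-type siGL2 replicate 3. TNRC6C mRNA had 20.6, 21.4 and 21.2 CPM in wild-type siTNRC6C cells and 58, 53.7 and 49.5 CPM in wild-type siGL2 cells. Its log2 fold change by siTNRC6C was thus -2.6 in TNRC6AB-/- cells and -1.35 in wild type, a difference of -1.25 (SE 0.125, adjusted p = 1.1e-05, edgeR), so the size of the silencing step was unequal between the genotypes, and its part in the next comparison was not tested. The difference between the siTNRC6C effects in the 2 genotypes was negative for all 78 members, with a median of -0.42 against -0.01 over all genes. Mitochondrial ribosomal protein genes were negative in 75 of 75, with a median of -0.51, and 9 were called. Proteasome genes had a median of -0.39, and 826 other protein-coding genes under 1000 bases had -0.32. Of the members 0 were called by edgeR, where 3.03% of all genes were called. An unadjusted p below 0.05 (edgeR) was reached by 19 members, beside 4453 of all 24153 genes. Without TNRC6B-/- replicate 1 the count of members called was 2. DESeq2 called 1, limma voom with weights per group 44, where 14.4% of all genes were negative, and the fit of only the compared libraries 73, where 20.7% were. RPL7L1 (-0.61, SE 0.186, adjusted p = 0.072), RPS26 (-0.50, SE 0.184, adjusted p = 0.133) and RPL24 (-0.54, SE 0.203, adjusted p = 0.146) had the smallest adjusted p.

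Transfection with siGL2 went with higher CPM of some members. Against untransfected wild type, 11 members rose and 0 fell in wild-type siGL2 cells, where 16.4% of all genes rose, with a median of 0.30. RPS26, of the small subunit, rose by 0.51 on the log2 scale (SE 0.13, adjusted p = 0.00755) and RPL38 by 0.47 (SE 0.138, adjusted p = 0.0156, edgeR). RPL35 (0.60, adjusted p = 0.0268) and RPL21 (0.45, adjusted p = 0.0316) rose too, while RPL37 stood at 0.10 (adjusted p = 0.715) and RPL28 at 0.04 (adjusted p = 0.885, edgeR), the last turning to -0.36 on log2(TPM + 1). In TNRC6AB-/- siGL2 cells against untransfected TNRC6AB-/- cells, 11 rose and 0 fell, where 9.74% of all genes rose, with a median of 0.23. RPL21 rose by 0.62 (SE 0.148, adjusted p = 0.00452) and RPL22 by 0.57 (SE 0.148, adjusted p = 0.00851, edgeR), and RPL7L1 (0.47, adjusted p = 0.0148) and RPL14 (0.46, adjusted p = 0.0237) followed. RPL13 (-0.10, adjusted p = 0.789) and RPL28 (-0.08, adjusted p = 0.793, edgeR) lay at the other end. Neither count stands far from the share of all genes that rose. On log2(TPM + 1) with limma the first median turned to -0.06, with 3 members falling and 0 rising, where 1.0% of all genes rose and 14.8% fell (16.4% and 8.4% on scaled counts), and the second median was 0.39, and 61 members rose, where 9.1% of all genes rose and 4.4% fell (9.7% and 10.4% on scaled counts). The first count was 0 without wild type replicate 2 or wild-type siGL2 replicate 2, 1 without wild-type siGL2 replicate 1, 2 without wild type replicate 1 or TNRC6AB-/- replicate 2, 6 or 7 without TNRC6A-/- replicate 1 or 2 or 8 of the transfected libraries, 17 without wild type replicate 3 and 26 without wild-type siGL2 replicate 3. The second count was 2 without TNRC6AB-/- replicate 1 or TNRC6AB-/- siGL2 replicate 1 or 2, 3 without TNRC6AB-/- replicate 2, 20 without TNRC6B-/- replicate 1 and 22 without TNRC6AB-/- replicate 3. The share of all genes that rose is not given for these fits with 1 library left out. Transfected and untransfected libraries also differ in fragment length, so these cannot be told apart.

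**Figure D4:**
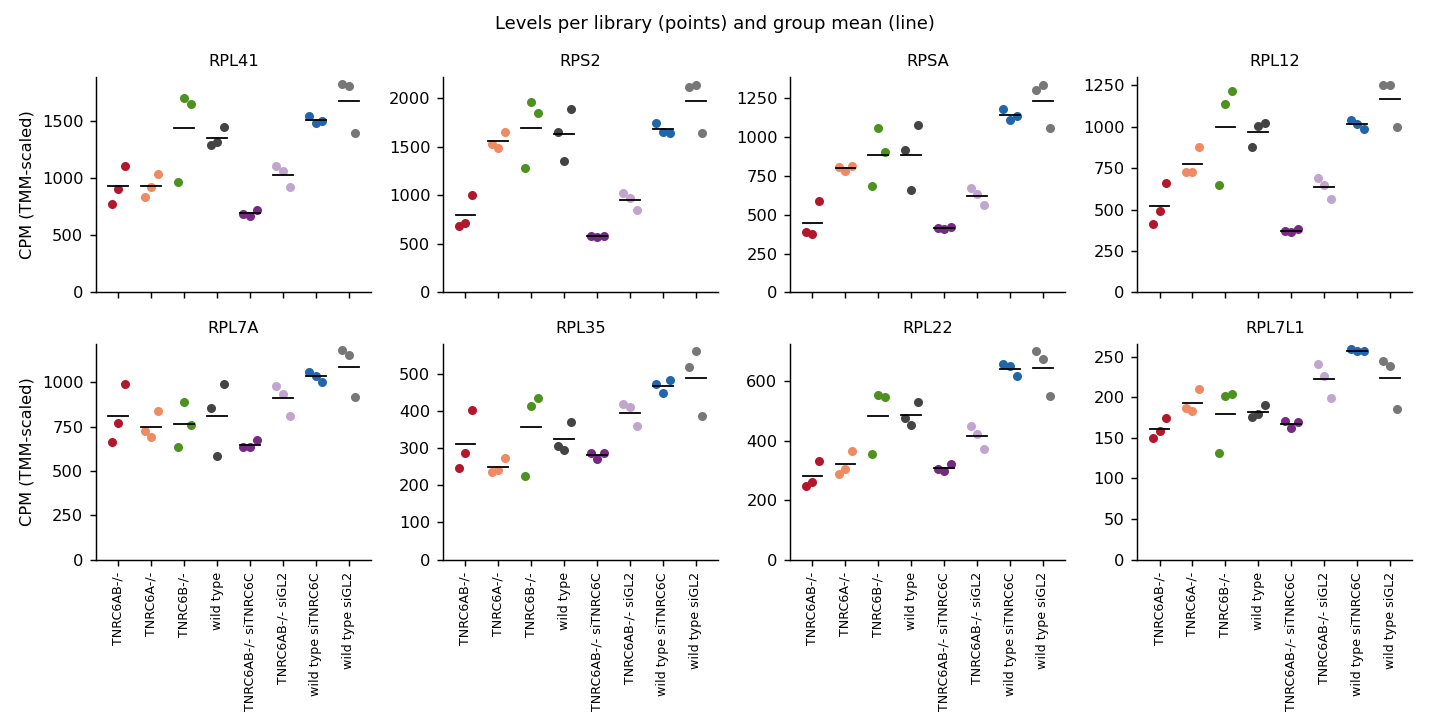
CPM in each of the 24 libraries (points) and group means (lines) for 8 members. RPL41, RPS2, RPSA, RPL12 and RPL22 fell in TNRC6AB-/- against wild-type cells, and RPL7A, RPL35 and RPL7L1 were not called there. RPS2 has 681.9 to 1003.8 CPM in TNRC6AB-/- libraries and 1350.4 to 1886.8 CPM in wild-type ones, while RPL7A overlaps between these groups.

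A few members departed from the rest. In TNRC6AB-/- cells against wild type RPL7A, RPL35, RPL7L1, RPL15 (-0.23), RPS27 (-0.26) and RPL31 (-0.51) did not pass the test, and among siGL2-treated cells RPL7A, RPL35 and RPL7L1 did not. RPL7A, a large-subunit protein whose gene hosts several small nucleolar RNAs, had 665, 770.7 and 992.9 CPM in TNRC6AB-/- cells and 857.2, 584.3 and 993 CPM in wild type (log2 fold change -0.00, SE 0.166, adjusted p = 0.992, edgeR). RPL35, at the peptide exit of the large subunit, had 246.6, 287.1 and 403.7 CPM in TNRC6AB-/- cells and 307.4, 295.1 and 370.6 CPM in wild type (-0.05, SE 0.191, adjusted p = 0.876, edgeR). For both genes the ranges of the groups overlap, and for RPL7A the TNRC6AB-/- range lies wholly inside that of wild type. Among siGL2-treated cells, TNRC6AB-/- against wild type, RPL7A stood at -0.26 (SE 0.166, adjusted p = 0.311) and RPL35 at -0.31 (SE 0.191, adjusted p = 0.289). The further step with siTNRC6C was -0.49 for RPL7A and -0.49 for RPL35 beside the members' median of -0.46.

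RPL7A (133348214 to 133351426) and RPL35 (124857880 to 124861981) both lie on the distal long arm of chromosome 9 (GRCh38, GENCODE 29). Other genes of that stretch, with a mean of at least 5 CPM, stood higher in TNRC6AB-/- cells. The 28 genes within 2 Mb of RPL7A had a median log2 fold change of 0.83 against wild type and 0.60 in the siGL2 comparison, and the 24 genes around RPL35 had 0.68 and 0.60. In the window from 120 to 130 Mb of chromosome 9 the median was 0.58 over 107 genes and in that from 130 to 140 Mb 0.83 over 95 genes, while from 110 to 120 Mb it was 0.03 over 35 genes. In TNRC6A-/- cells these windows had medians of 0.12 and 0.16, and in TNRC6B-/- cells 0.10 and 0.06. Among members, neighbourhoods with the next highest medians against wild type were those of RPS14 on chromosome 5, at 0.47, and RPS12 on chromosome 6, at 0.40, and both genes fell by 0.72. The third member on this arm, RPL12 (127447674 to 127451405), fell by 0.89 (SE 0.18, adjusted p = 0.000517, edgeR) although the 60 genes around it had a median of 0.66. Copy number was not measured, the windows were chosen after the values were seen, and the part of the chromosomal stretch in the level of RPL7A and RPL35 was not tested.

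Genes of the other lists that lie beyond 120 Mb on chromosome 9 bear this pattern in part. MRPL41, of the mitochondrial ribosome, rose by 1.24 on the log2 scale in TNRC6AB-/- cells (SE 0.171, adjusted p = 6.55e-06), PSMB7, a proteasome subunit, by 0.75 (SE 0.129, adjusted p = 8.56e-05), NDUFA8, of respiratory complex I, by 0.57 (SE 0.139, adjusted p = 0.00275) and TSC1, which restrains mTOR, by 0.91 (SE 0.0899, adjusted p = 6.42e-08, edgeR). The call of NDUFA8 was lost in the fit of only the compared libraries (adjusted p = 0.0931), and NDUFA8, MRPS2 and PSMD5 were named after their values were seen. MRPS2 (0.23, SE 0.131, adjusted p = 0.212) and the proteasome assembly factor PSMD5 (0.19, SE 0.102, adjusted p = 0.171) did not pass.

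**Figure D5:**
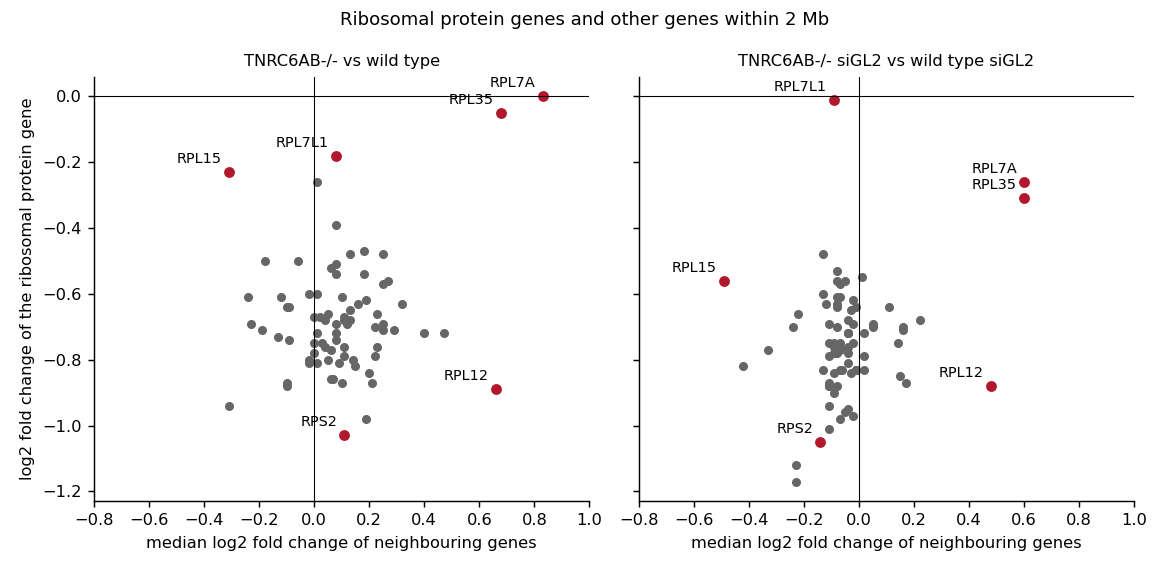
Log2 fold change of each member (vertical) against the median of the other genes within 2 Mb of it (horizontal), in TNRC6AB-/- against wild type (left) and in TNRC6AB-/- siGL2 against wild-type siGL2 cells (right). RPL7A and RPL35 stand apart at neighbour medians of 0.83 and 0.68 on the left, and RPL12 at 0.66 fell by 0.89.

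In the comparisons of TNRC6AB-/- with wild-type cells RPL7L1 moved less than most members, and it also differs in length (2860 bases against a median of 648) and level. It had 149.5, 158.3 and 174.8 CPM in TNRC6AB-/- cells and 175.4, 179.7 and 190.8 CPM in wild type (log2 fold change -0.18, SE 0.131, adjusted p = 0.357, edgeR), values without overlap that did not pass the test. With siGL2 it had 240.7, 226.5 and 199.2 CPM in TNRC6AB-/- cells and 245.2, 238.8 and 185.9 CPM in wild type (-0.01, SE 0.131, adjusted p = 0.978). The genes within 2 Mb of it, on chromosome 6, had a median of 0.08 in TNRC6AB-/- against wild type. With protein-coding transcripts only, RPL7L1 fell in TNRC6AB-/- against wild type (-0.27, adjusted p = 0.00895, edgeR). For the step of siTNRC6C within TNRC6AB-/- cells it stood at -0.41, beside the members' median of -0.46.

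The mitochondrial ribosomal protein genes, a family of similar size whose products are made in the cytosol but work in the mitochondrion, moved less. In TNRC6AB-/- cells against wild type 14 of 75 fell and 3 rose, with a median of -0.15, against 72 of 78 and -0.69 for the cytosolic family. In TNRC6AB-/- siGL2 cells 15 fell and 1 rose against wild-type siGL2 cells, with a median of -0.23, and in TNRC6AB-/- siTNRC6C cells 61 fell, with a median of -0.58. MRPL36, of the large mitochondrial subunit, fell in all 3, with log2 fold changes of -1.38, -1.32 and -1.98 (adjusted p = 1.45e-05, 2.88e-05 and 6.59e-08, edgeR). For the step of siTNRC6C within TNRC6AB-/- cells both families were near each other, at -0.36 for the mitochondrial and -0.46 for the cytosolic one. Their share of TPM was 0.265% ± 0.0092 in TNRC6AB-/- siTNRC6C cells, 0.291% ± 0.00718 in TNRC6AB-/- siGL2 cells and 0.256% ± 0.00145 in wild-type siGL2 cells (mean ± SD, n = 3 each), so on this scale the mitochondrial family did not stand below wild type in transfected cells while the cytosolic one did. Without transfection it held 0.204% ± 0.0203 in TNRC6AB-/- cells and 0.237% ± 0.0267 in wild type (n = 3 each), groups that overlapped. Genes of oxidative phosphorylation had medians of -0.11, -0.37 and -0.74 in these 3 comparisons, with 12, 35 and 68 of 81 falling, and proteasome genes 0.27, -0.02 and -0.22, with 0, 0 and 13 of 37 falling and 13, 1 and 0 rising. Of all genes tested 12.3%, 12.5% and 25.2% fell in the same 3 comparisons, and 4146, 2215 and 4116 of 24153 rose. The 12 oxidative phosphorylation genes that fell in untransfected TNRC6AB-/- cells are thus near the share of all genes.

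Ribosomal protein mRNAs are short, with 77 of 78 members under 1500 bases, and short genes as a whole also moved in several comparisons. With siTNRC6C in TNRC6AB-/- cells, relative to wild-type siGL2 cells, the median of 826 other protein-coding genes under 1000 bases was -0.54 and that of 509 genes of 6000 bases or more was 0.16. The corresponding medians were -0.22 and 0.12 for TNRC6AB-/- siGL2 against wild-type siGL2 cells, -0.31 and 0.01 for the step of siTNRC6C in TNRC6AB-/- cells, -0.01 and 0.13 for TNRC6AB-/- against wild type without transfection, and -0.10 and 0.15 for TNRC6A-/- against wild type. For siTNRC6C in wild-type cells they were 0.03 and 0.03, and against untransfected cells short genes stood higher with siGL2, at 0.39 and 0.07 in wild type and 0.16 and -0.02 in TNRC6AB-/- cells. The members' medians of -1.21, -0.75, -0.46, -0.69 and -0.33 lie below those of short genes in the first 5 of these comparisons, and what part length has in them was not tested.

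In the comparisons of TNRC6AB-/- cells with wild type, the scale changed the size of the members' median but not its direction. On log2(TPM + 1) with limma the members' median was -0.81 in TNRC6AB-/- against wild type, -0.36 in TNRC6AB-/- siGL2 and -0.61 in TNRC6AB-/- siTNRC6C against wild-type siGL2 cells, while the median of all genes shifted to -0.04, 0.19 and 0.30. Relative to all genes the members thus stood at -0.77, -0.54 and -0.91. On this scale 75, 63 and 75 members fell. Of all genes, 8.8% rose and 11.4% fell in TNRC6AB-/- cells on the TPM scale, against 17.2% and 12.3% on scaled counts. In TNRC6AB-/- siGL2 cells 19.1% rose and 3.1% fell, against 9.2% and 12.5%, and in TNRC6AB-/- siTNRC6C cells 43.1% rose and 6.1% fell, against 17.0% and 25.2%. For the step of siTNRC6C in TNRC6AB-/- cells the split was 2.8% and 0.9% on the TPM scale, against 2.2% and 4.4%, with 18 members falling. RPL7L1 changed sign, to 0.36 (adjusted p = 0.0137) and 0.14 (adjusted p = 0.258) in the comparisons with wild-type siGL2 cells, and the calls of RPL7A (-0.13, adjusted p = 0.426) and RPL35 (-0.17, adjusted p = 0.113) were lost in TNRC6AB-/- siTNRC6C cells.

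Other mRNAs of the translation machinery that are known TOP mRNAs followed the ribosomal proteins. Of 26 such genes 17 fell in TNRC6AB-/- cells, 22 in TNRC6AB-/- siGL2 and 26 in TNRC6AB-/- siTNRC6C cells, 0 rose in any of the 3, and the medians were -0.46, -0.56 and -0.97. The histone chaperone NAP1L1 had log2 fold changes of -0.68, -0.84 and -1.14 (adjusted p = 3.81e-05, 4.36e-06 and 2.61e-08) and the initiation factor subunit EIF3K of -0.65, -0.56 and -1.04 (adjusted p = 0.000115, 0.000853 and 1.89e-07, edgeR). Of 15 chaperones and assembly factors that deliver ribosomal proteins or finish subunits, 10 fell and 1 rose in TNRC6AB-/- cells, 3 fell and 1 rose in TNRC6AB-/- siGL2, and 8 fell in TNRC6AB-/- siTNRC6C cells. Beside both lists, 12.3%, 12.5% and 25.2% of all genes tested fell in these 3 comparisons. Among paralogs left out by the rule RPL22L1, the paralog of RPL22, fell (-0.85, -0.93 and -1.51, adjusted p = 0.000888, 0.000625 and 8.87e-07), while RPS27L, a p53-responsive paralog of RPS27, rose by 0.40, 0.47 and 0.31 (adjusted p = 0.0111, 0.00452 and 0.0357, edgeR). The first call of RPS27L was lost in the fit of only the compared libraries (adjusted p = 0.137) and the third without any of 5 of the 6 libraries compared (adjusted p = 0.0524 to 0.136).

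Regulators of ribosomal protein genes moved in both directions, with 7 of 22 falling and 4 rising in TNRC6AB-/- cells. Of all genes tested 12.3% fell and 17.2% rose there, so the count that rose is near that share. TSC1, which rose, lies on the chromosome 9 stretch described above. MYC, a transcription factor that drives ribosome production, had 42.1, 48.3 and 77.2 CPM in TNRC6AB-/- cells, 256.3, 263.7 and 332.5 CPM in TNRC6A-/-, 136.3, 293.3 and 284.8 CPM in TNRC6B-/- and 300.4, 227.8 and 314.2 CPM in wild type. Its log2 fold change was -2.33 in TNRC6AB-/- against wild type (SE 0.23, adjusted p = 6.42e-08) and -1.03 and -1.72 in TNRC6AB-/- siGL2 and TNRC6AB-/- siTNRC6C against wild-type siGL2 cells (adjusted p = 0.00154 and 2.27e-06, edgeR). LARP1 fell in TNRC6AB-/- cells (-0.41, adjusted p = 0.00173, a call lost in the fit of only the compared libraries) and in TNRC6AB-/- siTNRC6C cells (-0.39, adjusted p = 0.00192), though on log2(TPM + 1) the second value was 0.40 (adjusted p = 0.046). EIF4EBP2, an inhibitor of cap-dependent initiation, rose by 0.82, 0.59 and 0.96 (adjusted p = 1.24e-05, 0.000818 and 1.01e-06). Of 8 genes of the p53 response, 4 rose and 1 fell in TNRC6A-/- cells, where 8.5% of all genes rose, 6 rose and 1 fell in TNRC6AB-/- cells, where 17.2% rose, 4 rose in TNRC6AB-/- siGL2 cells, and 3 rose and 1 fell in TNRC6AB-/- siTNRC6C cells. Of all 24153 genes tested 2215 rose in TNRC6AB-/- siGL2 cells, and 4116 rose and 6077 fell in TNRC6AB-/- siTNRC6C cells. CDKN1A, the cell cycle inhibitor p21, rose by 1.41, 1.41 and 1.60 (adjusted p = 2.61e-06, 4.41e-06 and 3.45e-07, edgeR) and MDM2 by 0.78, 0.96 and 0.78 (adjusted p = 1.94e-06, 1.83e-07 and 1.5e-06).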

How the data were processed

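RNA of HCT116 cells was sequenced in 24 libraries, 3 in each of 8 groups. The authors mapped reads with STAR 2.5.3a to hg38 and ran Salmon 0.11.0, per the submitters' processing notes, and deposited an estimated count of reads and a TPM value for each of 199612 transcripts a library. Deposited TPM values are relative to transcript length and to the library's own sum. Of the transcripts 199368 were matched to GENCODE 29, and at most 0.0544% of reads in a library were unmatched. Estimated counts were summed per gene, rounded and scaled by TMM over all libraries, and 24153 genes passed edgeR's expression filter. Depth was 28144290 to 42689320 reads a library, which limits counting error only.

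Each comparison was a contrast in 1 edgeR quasi-likelihood fit of all 24 libraries (edgeR 4.0.16, limma 3.58.1, DESeq2 1.42.0, R 4.3.3), with 16 residual degrees of freedom, and p-values were adjusted over all genes by Benjamini-Hochberg with a threshold of 0.05. CPM values are TMM-scaled. Alternatives were DESeq2, no expression filter, only the compared libraries, a replicate block, limma voom with weights per group, a length offset, TMM without ribosomal protein and mitochondrial genes, protein-coding transcripts only, pseudogene reads added, and each library left out. The most distant library of each group left out, by all genes outside the family, and limma on log2(TPM + 1), with a pseudocount of 1, were chosen after seeing the data.

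The members and gene lists were chosen with earlier results of these data known. In each comparison the text names the 4 members with the smallest adjusted p, the 2 that lie farthest against the median, members with textbook roles, the highest and lowest members by TPM, up to 3 genes of each other list, MYC, LARP1 and the targeted genes. In each interaction it names the 3 members with the smallest adjusted p. Genes outside this rule are said to be named after their values were seen, as are RPL15, RPS27, RPL31, RPS12, RPS14 and, in the comparisons outside the rule, RPL7A, RPL12, RPL35 and RPS27L. RPSA and RPL3 were named in that way too in the difference between double and single knockouts. The GENCODE release behind the files is not given in the sources used here.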

Additional observations from a re-analysis of the deposited data

Results flagged for a closer look

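The change in TNRC6AB-/- cells differed from the sum of the single knockouts, by the test of the difference itself, in 5 of 78 members, a count near the 4.28% of all genes called negative. The log2 difference was -1.02 for RPS2, -0.93 for RPS18, -0.83 for RPSA, -0.81 for RPL3 and -0.69 for RPL14 (edgeR, adjusted p = 0.00522 to 0.0377). The count was 0 in a fit of only the compared libraries and 1 to 42 with 1 library left out, the highest without TNRC6B-/- replicate 1.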

How the results depend on the processing

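In TNRC6AB-/- against wild type 57 to 76 members fell over the alternatives, in TNRC6AB-/- siGL2 against wild-type siGL2 cells 63 to 75, and in TNRC6AB-/- siTNRC6C against wild-type siGL2 cells 75 to 78. Leaving out 1 library gave 54 to 73, 66 to 75 and 77 to 78. Other counts of members called moved more, and the cause was not tested for any of them. The share of all genes called also differed between settings, as given above for some. A count given without that share does not show how the members stood relative to all genes. In TNRC6A-/- the count was 33 with no expression filter, 57 with protein-coding transcripts only, 45 with the most distant library of each group left out, 49 on log2(TPM + 1), and 6 to 39 with 1 library left out. In TNRC6B-/- it was 20 with the most distant libraries left out, 18 on log2(TPM + 1) and 0 to 2 with 1 library left out. In wild type with siTNRC6C it was 1 with the most distant libraries left out and 0 with any 1 library left out. For siTNRC6C in TNRC6AB-/- cells it was 57 with no filter, 78 with only the compared libraries, 6 with a length offset, 31 with protein-coding transcripts only, 78 with limma voom, 30 with DESeq2, 75 with the most distant libraries left out, 18 on log2(TPM + 1), and 0 to 60 with 1 library left out. For siGL2 in wild type it was 17 with no filter, 0 with only the compared libraries, 2 with protein-coding transcripts only, 4 with pseudogene reads added, 7 with limma voom, 31 with the most distant libraries left out, 3 on log2(TPM + 1), and 0 to 26 with 1 library left out. For siGL2 in TNRC6AB-/- cells it was 19 with no filter, 18 with protein-coding transcripts only or limma voom, 61 on log2(TPM + 1), and 2 to 22 with 1 library left out. The difference between double and single knockouts was called for 15 members with no filter, 0 with only the compared libraries, 19 with protein-coding transcripts only, 2 with limma voom, 37 with the most distant libraries left out, 18 on log2(TPM + 1), and 1 to 42 with 1 library left out. The difference between genotypes in the siTNRC6C effect was called for 1 member with no filter, with protein-coding transcripts only or with DESeq2, 73 with only the compared libraries, 44 with limma voom, 4 with the most distant libraries left out, and 0 to 2 with 1 library left out. The difference between transfected and untransfected knockout effects was called for 2 with protein-coding transcripts only, 49 on log2(TPM + 1) and 0 with any 1 library left out.

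Signs turned on log2(TPM + 1) for RPL7L1 in TNRC6AB-/- siTNRC6C (0.14) and TNRC6AB-/- siGL2 (0.36) against wild-type siGL2 cells, TNRC6A (0.67), LARP1 (0.40), PSMD10 (0.13), PSMB1 (0.01) and PSMA4 (0.02) in the first of these, RPL28 (-0.36) for siGL2 in wild type, and RPLP2 (-0.30) and RPS27A (-0.30) in TNRC6B-/- cells. They turned likewise for the difference of knockout effects with and without transfection in RPLP0 (0.49), RPLP1 (0.49), RPLP2 (0.49), RPS6 (0.53), RPS19 (0.45) and RPS4X (0.42). TNRC6A turned to 0.07 with a length offset. Over all named genes and alternatives 11051 values kept direction and call, 223 lost and 235 gained a call. In 17, those listed above, the sign turned with a call in the fit of 24 libraries or in the alternative. In 269 more the sign turned with a call in neither. With a replicate block 20 members became 19 in TNRC6A-/-, 72 became 71 in TNRC6AB-/-, and 10 became 8 for siTNRC6C in TNRC6AB-/- cells. The samples share only a number: same-numbered libraries correlated at 0.149, 0.098 and 0.065 in TNRC6A-/- and wild type, each best with its own number, and less evenly elsewhere.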
